A study of Mus musculus with 33 samples.

Results

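Among 12 ovary libraries from cycling mice, 8 were high and 4 were low in transcripts of the oviduct epithelium. The 2 sets are called oviduct-rich and oviduct-poor here. The oviduct-rich libraries were all 4 labelled PE, replicates 1, 2 and 4 of DE, and replicate 3 of E. The oviduct-poor libraries were replicate 3 of DE and replicates 1, 2 and 4 of E. The sets were chosen from measured levels in the same libraries, so every difference between them is a description and carries no test.

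The 12 libraries belong to a series of 33 mouse ovary libraries, all of polyadenylated RNA and made in 3 experiments. DE, PE and E are the labels for stages of the estrous cycle. All 12 cycling mice are labelled wild type. A further group of 4 libraries in the same experiment is labelled wild type by genotype and KO (anestrus) by stage, and is written KO (anestrus) below. Experiment 1 held 3 libraries each of WT, Fshb(+/-) and Fshb(-/-) ovary, and experiment 2 held 4 each of Fshb(-/-) and of Fshb(-/-) with HFSHB, none of them staged. The sources used here do not give ages, strain or whether a library pooled animals, so p-values between stages measure the spread between libraries. Total counts ran from 10.1 to 15.9 M in the 12 libraries. Genes of the ovary itself were present in all 12: Inha, the inhibin alpha subunit of granulosa cells, ran from 613 to 1462 CPM (counts scaled to 1 M per library), and Gdf9, a growth factor made by oocytes, from 23.1 to 101 CPM.

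The oviduct, or Fallopian tube, is a muscular tube that joins the ovary to the uterus and in the mouse coils close against the ovary inside a shared bursa. Its lining is a simple epithelium of multiciliated cells, whose beating cilia move the egg, and secretory cells, which release glycoproteins and protease inhibitors into the lumen. Multiciliated cells build their cilia under transcription factors that include FOXJ1, TRP73, MYB and the RFX family. Granulosa cells, luteal cells, theca cells and oocytes do not normally carry motile cilia.

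The 3 genes that mark the split gave levels that did not overlap. Ovgp1 encodes oviductal glycoprotein 1, the main secreted glycoprotein of the oviduct, and lies on chromosome 3 (105973711 to 105987423, plus strand, GRCm38). Its lowest, median and highest levels in the rich libraries were 2973, 4519 and 7043 CPM. In the poor libraries it measured 3 CPM in DE replicate 3, and 2.02, 2.93 and 1.3 CPM in E replicates 1, 2 and 4. The gap was therefore about 3 orders of magnitude in every pairing of a rich with a poor library. Foxj1, the forkhead factor required for motile cilia (chromosome 11, 116330704 to 116335399, minus strand), had a lowest, median and highest level of 45.5, 66.9 and 102 CPM in the rich libraries. It measured 0.6 CPM in DE replicate 3, and 0.0877, 0.191 and 0.37 CPM in E replicates 1, 2 and 4. Rsph1, a radial spoke protein of the cilium (chromosome 17, 31255019 to 31277383, minus strand), was less divided. It had 17.2, 25.5 and 34.9 CPM as lowest, median and highest in the rich libraries, against 3.38 CPM in DE replicate 3 and 3.07, 5.41 and 3.43 CPM in the E libraries.

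On the mean of the 3 markers, as log2(CPM + 0.5), the rich library nearest to the poor ones was DE replicate 4, at 7.10. The poor library nearest to the rich ones was DE replicate 3, at 1.30. No library of the 12 lay between them. The 4 KO (anestrus) libraries measured 1.36, 36.2, 5.83 and 35.6 CPM of Ovgp1, below every rich library, and 0.583 to 2.78 CPM of Foxj1.

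**Figure D1:**
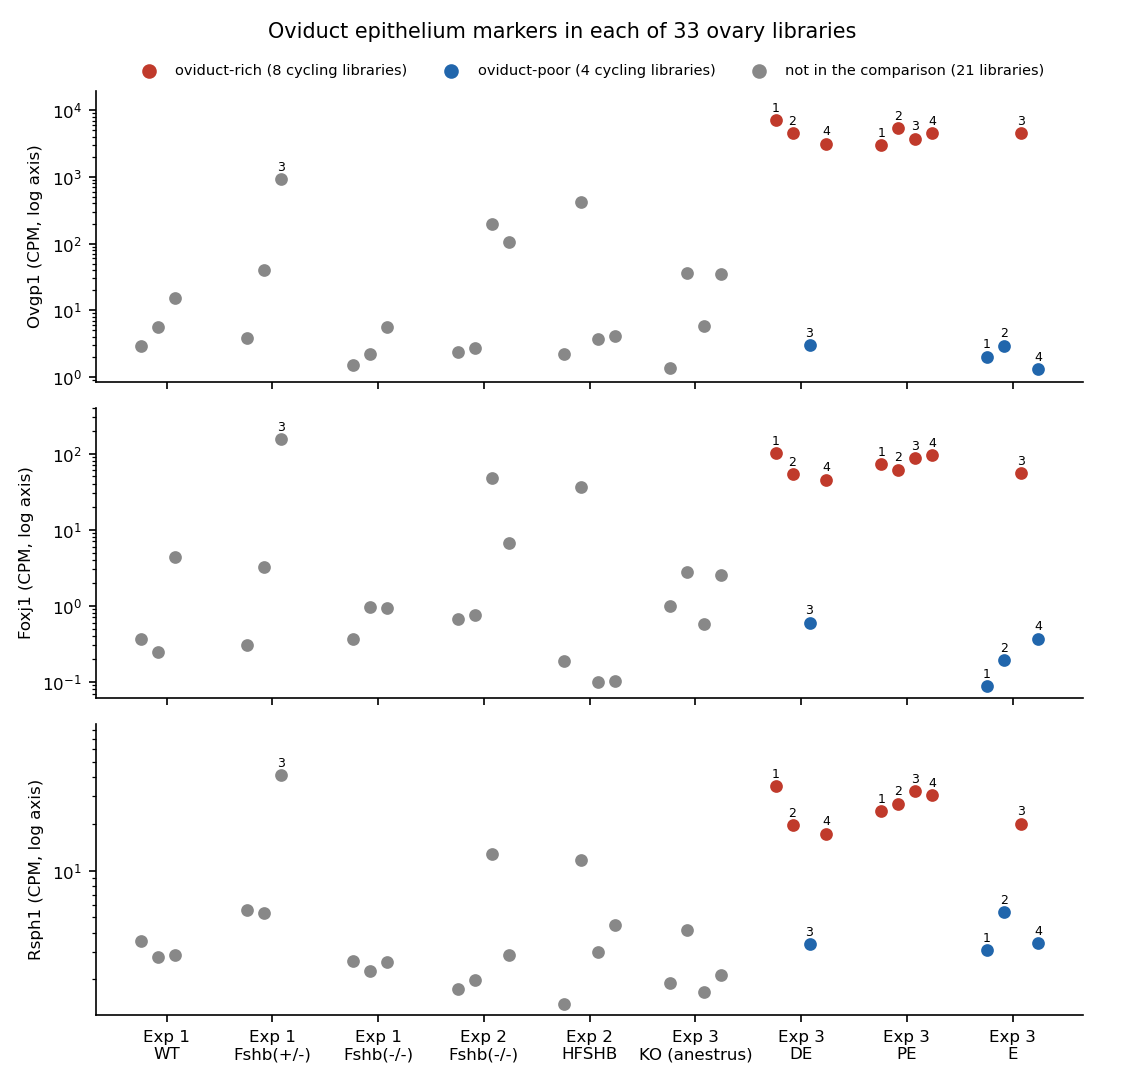
CPM (log axis) of Ovgp1, Foxj1 and Rsph1 in each of the 33 libraries, by experiment and group; each point is 1 library, red for the 8 oviduct-rich and blue for the 4 oviduct-poor, with replicate numbers beside the points discussed. In experiment 3 the red points of Ovgp1 sit at 2973 CPM or more and the blue points at 3 CPM or less, with DE replicate 3 and E replicate 3 on the other side from the rest of their stage.

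A gene was called set apart when all 8 rich libraries lay on one side of all 4 poor libraries and the means of log2(CPM + 0.5) differed by at least 1. Of 16944 expressed genes, 1294 were set apart higher in the rich libraries, 7.64% of the total, and 19 were set apart lower, or 0.112%. The lower count was unstable: it ran from 19 to 114 with 1 library left out (114 without E replicate 4), and was 578 within DE and 333 within E. The higher count ran from 1284 to 1430 with 1 library left out. Without the demand on size, 1903 genes (11.2%) did not overlap and were higher, and 498 (2.94%) did not overlap and were lower. The median difference over all expressed genes was -0.02 on the log2 scale, which the TMM scaling sets near 0. Among the 1294 genes, 668 differed by at least 4-fold, 337 by at least 8-fold and 47 by at least 32-fold. In the poor libraries 563 of them were under 1 CPM in all 4, and 58 had no count at all. In bulk RNA, fewer cells of a type and less RNA per cell cannot be told apart.

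The 1294 genes together took 3.57% to 5.16% of all counts in the rich libraries and 0.721% to 1.03% in the poor. In the KO (anestrus) libraries they took 0.986% to 1.21%. Ovgp1 alone held 0.297% to 0.704% of the counts of a rich library.

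**Figure D2:**
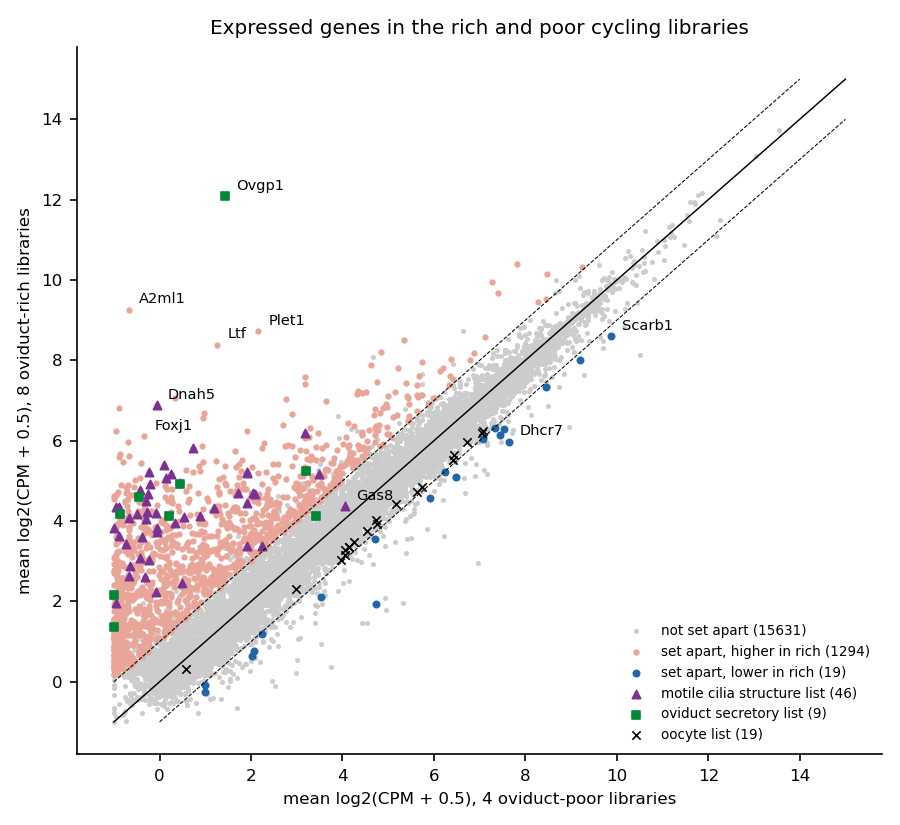
Mean log2(CPM + 0.5) of each of 16944 expressed genes in the 4 oviduct-poor libraries (x axis) and the 8 oviduct-rich libraries (y axis), each point 1 gene; dashed lines mark a 2-fold difference. The 1294 genes set apart higher rise to Ovgp1, 10.64 log2 units above the diagonal, while the 19 set apart lower and the oocyte list lie below it.

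Genes of the motile cilium were the most completely divided group. Of 48 listed genes 46 were matched by symbol, all 46 were expressed, and 45 were set apart higher, with a median difference of 3.71 on the log2 scale. Rsph1 marks the split and is counted among the 45, so its place there was fixed by the choice of libraries. In all 4 poor libraries 26 of the 46 were under 1 CPM, and in all 8 rich libraries 44 were over 3 CPM. The list covers each part of the axoneme, the microtubule core of the cilium. Dnah5, the heavy chain of the outer dynein arm, had a lowest, median and highest level of 76.7, 124 and 195 CPM in the rich libraries. It measured 1.43 CPM in DE replicate 3, and 0.175, 0.0637 and 0.648 CPM in the 3 poor E libraries, a log2 difference of 6.96.

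Other dynein arm genes were divided in the same way. Dnah6, an inner arm heavy chain, ran from 38.6 to 81 CPM in the rich libraries and from 0.956 to 1.4 CPM in the poor. Dnah12 ran from 18.5 to 47.3 CPM against 0.191 to 0.75 CPM. Dnah9, a second outer arm heavy chain, was set apart by less, with 25.1 to 58.2 CPM against 2.85 to 4.14 CPM. It also had 11.5 to 17 CPM in the KO (anestrus) libraries, above every poor cycling library. Genes that assemble the arms in the cytoplasm were part of the same pattern: Dnaaf1 had 3.81 to 13.8 CPM in the rich libraries and 0.0877 to 0.45 CPM in the poor, and Zmynd10 5.61 to 16.3 CPM against 0.0637 to 0.15 CPM.

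Radial spoke and central pair genes followed. Rsph4a, a spoke head protein, ran from 24.9 to 51 CPM in the rich libraries and 0.0877 to 0.75 CPM in the poor. Hydin, a large protein of the central pair, ran from 21.2 to 60.8 CPM against 0.319 to 1.05 CPM. Spag17, also of the central pair, had 7.92 to 17.5 CPM in the rich libraries, and only 2 counts were found over the 4 poor libraries. Ccdc39 and Ccdc40 encode the ruler that sets the spacing of arms and spokes. Ccdc40 differed by 4.92 log2 units and Ccdc39 by 2.66. Pifo, a gene of ciliated cells, had 9.13 to 22.1 CPM in the rich libraries and no count in any poor library. Against the 3 counts per library that a count of 0 allows, it was at least 59-fold higher.

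The single member not set apart was Gas8, a subunit of the dynein regulatory complex, at 17.8 to 22.3 CPM in the rich and 14 to 18.2 CPM in the poor libraries. The members with the smallest differences among the 45, Ccdc114 (1.13) and Rsph9 (1.45), also had several CPM in every poor library: 3.5 to 6.11 and 2.96 to 3.82 CPM. Mns1, a filament protein of cilia and sperm flagella, had 22.1 to 52.2 CPM in the rich libraries, 9.05 to 12 CPM in the poor and 24.9 to 30.9 CPM in the KO (anestrus) libraries, which thus lay within the rich range for this gene.

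Of 12 listed regulators of ciliogenesis 10 were expressed and 6 were set apart higher, with a median difference of 1.53 over the 10. The 6 include Foxj1, which marks the split, so its place there was fixed by the choice of libraries. Myb, which acts early in the multiciliated programme, ran from 6.79 to 25.4 CPM in the rich libraries and from 0.225 to 0.351 CPM in the poor. Trp73 ran from 4.34 to 10.8 CPM against 0.191 to 0.9 CPM. Gmnc, the coiled-coil protein that starts the programme, was low throughout, at 0.903 to 4.42 CPM against 0 to 0.319 CPM. Deup1, a scaffold for mass production of centrioles, had 2.12 to 8.05 CPM against 0.37 to 1.34 CPM. Rfx2 was set apart by little, at 9.04 to 16.6 CPM against 4.35 to 5.79 CPM.

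The other 4 regulators were not set apart. Rfx3 differed by 0.46 log2 units, E2f4 by 0.0 and E2f5 by -0.09. Ccno, a cyclin-like protein of multiciliated cells, was lower in the rich libraries by 0.77 log2 units, with 4.27 to 17.6 CPM against 11.6 to 20.6 CPM, and highest in the KO (anestrus) libraries at 26.3 to 34.2 CPM. The 2 listed genes below the filter on low counts were Mcidas and Cdc20b.

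RFX factors bind a motif with the letters GTTGCCA. On the opposite strand the same motif reads TGGCAAC. Because the cilia genes moved together, their promoters were searched for it in RefSeq sequence (GRCm38.p6) from 250 bases before to 50 bases after each start. It was found in 4.38% of all 32851 promoters and in 4.03% of those of expressed genes. Among promoters of the 1294 genes set apart higher the share was 8.24% (99 of 1202), and among those of the cilia list 21.3% (10 of 47, from 39 matched genes). The oviduct secretory list had 0 of 9 and the epithelial list 0 of 16, from 8 and 14 matched genes. These are too few promoters for a count of 0 to differ from the share over expressed genes. The forkhead core with the letters GTAAACA was searched on both strands too. It stood in 3.65% of all promoters, 2.66% of those of expressed genes, 4.16% of those of set apart genes and 6.38% of the cilia list (3 of 47). A match is a description of the letters and not a bound site. The 4 windows that follow are shown because the RFX motif lies within 15 bases before the start of a gene described here; capitals mark the RFX motif, each is printed 5′ to 3′ on the gene's strand, and coordinates are GRCm38.p6.
Hydin, chr8:110266933-110266999, plus strand: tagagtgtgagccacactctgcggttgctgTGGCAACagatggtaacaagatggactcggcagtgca
Drc1, chr5:30281351-30281417, plus strand: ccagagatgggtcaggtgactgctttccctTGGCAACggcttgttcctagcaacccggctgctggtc
Pifo, chr3:106001474-106001540, minus strand: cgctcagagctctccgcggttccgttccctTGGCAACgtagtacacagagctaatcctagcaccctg
Tekt1, chr11:72361861-72361927, minus strand: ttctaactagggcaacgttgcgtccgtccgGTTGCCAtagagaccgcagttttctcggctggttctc
The first base of the motif lies 14, 12, 13 and 15 bases before the start in Hydin, Drc1, Pifo and Tekt1. Drc1, a nexin link protein, ran from 9.37 to 27.1 CPM in the rich libraries and from 0.0877 to 0.6 CPM in the poor. Tekt1, a filament of the doublet microtubules, ran from 8.16 to 22.2 CPM against 0.351 to 0.573 CPM. Gas8, which was not set apart, also carries the RFX motif, 40 bases after its start.

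Secretory genes of the oviduct formed the second group, with 7 of 9 set apart higher and a median difference of 3.92. The 7 include Ovgp1, which marks the split, so its place there was fixed by the choice of libraries. Pax8, the transcription factor of secretory and progenitor cells, had 21.4, 29.2 and 51.4 CPM as lowest, median and highest in the rich libraries and 0.319 to 1.94 CPM in the poor. Wfdc2, a secreted protease inhibitor, ran from 4.52 to 59.5 CPM against 0.0926 to 0.45 CPM. Muc1, a membrane mucin, ran from 8 to 34.4 CPM against 0.446 to 0.965 CPM. Sox17, a factor shared with blood vessels, was set apart by 2.02 log2 units from 6.6 to 13.6 CPM in the poor libraries. Muc16 overlapped, at 12.1 to 21.2 against 8.15 to 15.2 CPM. The demilune cell and parotid protein genes Dcpp1, Dcpp2 and Dcpp3 are near-identical copies, so the split of reads between them is uncertain. Dcpp3 ran from 3.53 to 131 CPM in the rich libraries, with 3 counts in all over the poor. Dcpp2 had no count in one rich library, and none in the poor.

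The genes with the largest differences added secreted and transport proteins to these lists. A2ml1, a broad protease inhibitor related to alpha-2-macroglobulin, had 259, 511 and 1760 CPM as lowest, median and highest in the rich libraries. It measured 0.075 CPM in DE replicate 3, and 0.0877, 0.255 and 0.0926 CPM in E replicates 1, 2 and 4, which rest on 7 counts in all. Its log2 difference of 9.94 was second to that of Ovgp1. Ltf, the iron-binding protein lactoferrin, had 127, 306 and 800 CPM in the rich libraries and 0.37 to 5.09 CPM in the poor. Plet1, an epithelial surface protein, had 281, 429 and 617 CPM against 2.96 to 5.48 CPM.

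Upk1a, a uroplakin, ran from 47.3 to 77.5 CPM in the rich libraries against at most 0.255 CPM in the poor. Slc14a1, a urea transporter, ran from 61.2 to 180 CPM against 0.51 to 3.52 CPM. Slc23a1, a vitamin C transporter, had 16.4 to 44.2 CPM in the rich libraries and no count in the poor, at least 106-fold higher. Alox15, a lipoxygenase, ran from 65.8 to 156 CPM against 0.614 to 2.55 CPM. Padi1, an enzyme that converts arginine to citrulline in proteins, ran from 23.3 to 171 CPM against 0 to 0.185 CPM. Serpina1e and Ugt1a1 also stood among the 20 largest, with 2 counts each over the poor libraries, but both share sequence with close relatives, so their values are uncertain. The remaining members of the 20 were Fndc7, Gcnt3, Sec14l3, Ccdc153, Dnah3, Alox12e and Cdhr3, with log2 differences from 5.60 to 6.73.

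General epithelial genes were set apart from a higher base. Of 23 genes of junctions, keratins and epithelial transcription factors, 21 were set apart higher, with a median of 2.91. Cdh1, the adherens junction cadherin, ran from 102 to 185 CPM in the rich libraries and from 10.3 to 13.2 CPM in the poor. Epcam ran from 69.2 to 104 CPM against 14.1 to 23 CPM, and Krt8 from 110 to 172 CPM against 30.3 to 42.3 CPM. Ehf, an epithelial ETS factor, ran from 99.7 to 233 CPM against 5.46 to 6.93 CPM. Cldn4 and Esrp2 overlapped.

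Among genes that pattern the Müllerian duct, the embryonic source of oviduct and uterus, 7 of 10 were expressed and 5 were set apart, with a median of 2.20. Pax8 and Sox17 are in this list too. Pax2 had 3.46 to 10.9 CPM in the rich libraries and 0.0877 to 0.446 CPM in the poor. Hoxa9, the Hox gene of the oviduct, had 2.48 to 11.5 CPM against 0.225 to 1.85 CPM. Emx2 and Wnt7a overlapped, and Hoxa11, Hoxa13 and Lhx1 were below the filter on low counts. Esr1, the estrogen receptor alpha gene, was looked up after the values were seen. It ran from 206 to 345 CPM in the rich libraries and from 68.6 to 101 CPM in the poor, a log2 difference of 1.66.

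Lists of other tissues near the ovary had a smaller share of their genes set apart than the lists above. The ovarian surface and mesothelium list, the epithelium that covers the ovary itself, had 1 of 8 genes set apart (Lrrn4, 1.06) and a median of 0.40. Its members Upk3b (75 to 136 against 50.3 to 81.4 CPM) and Msln (24.2 to 48.7 against 17.3 to 25 CPM) overlapped. Smooth muscle, which forms the wall of the oviduct and also lies in ovarian vessels and theca, had 5 of 11 set apart (Acta2, Cnn1, Tagln, Des and Synpo2) and a median of 1.09. Des, the muscle filament desmin, ran from 115 to 370 CPM in the rich libraries and from 34.8 to 76.6 CPM in the poor. The mean of the smooth muscle list left a narrow gap, 7.37 in PE replicate 4 as the lowest rich and 7.25 in E replicate 4 as the highest poor library on the log2(CPM + 0.5) scale.

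Fat genes were on average higher in the rich libraries, in 9 of 10 listed genes, but the list mean overlapped between the sets. The adipocyte list had 1 of 10 set apart (Lep) and a median of 1.79. Its mean was highest in PE replicate 4 (7.22) and DE replicate 2 (6.97), while the rich libraries DE replicate 1 (4.13) and E replicate 3 (4.18) lay below the poor libraries E replicate 4 (5.20) and DE replicate 3 (4.74). Adipoq, the hormone adiponectin, ran from 16.4 to 274 CPM in the rich and from 6.12 to 62.9 CPM in the poor libraries. Of 12 endothelial genes none was set apart (median -0.15), and of 11 macrophage genes only Cd14 was (1.56, median 0.26). None of 13 mitochondrial genome transcripts was set apart, with a median of 0.17.

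**Figure D3:**
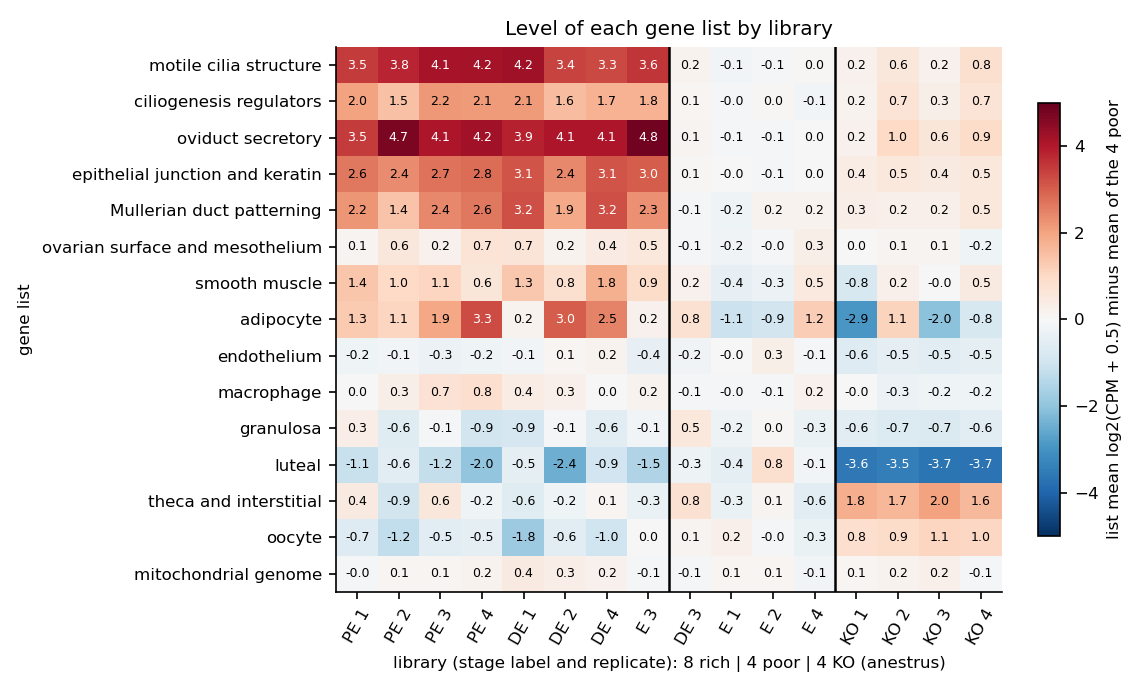
Mean log2(CPM + 0.5) of each of 15 gene lists in the 16 libraries of experiment 3, less the mean of the 4 oviduct-poor libraries; columns are the 8 rich, 4 poor and 4 KO (anestrus) libraries, and red is higher. The cilia, secretory, epithelial and Müllerian rows are red in all 8 rich libraries, the adipocyte row varies from library to library, and the luteal and oocyte rows are mostly blue in the rich libraries.

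Luteal and oocyte genes were on average lower in the rich libraries. All 10 luteal genes had a lower mean there, with a median of -1.34, but only Scarb1, the receptor that takes up cholesterol from lipoproteins, was set apart. Scarb1 had a lowest, median and highest level of 228, 392 and 503 CPM in the rich libraries. It measured 757 CPM in DE replicate 3, and 1187, 1507 and 578 CPM in E replicates 1, 2 and 4. Star, which brings cholesterol into mitochondria for steroid synthesis, differed by more (-2.37) yet overlapped, at 133 to 960 against 893 to 3236 CPM. The list mean was 7.22 to 9.19 in the rich and 9.21 to 10.47 in the poor libraries.

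All 19 oocyte genes had a lower mean in the rich libraries, with a median of -0.79, and none was set apart. Gdf9 ran from 23.1 to 92.1 CPM in the rich and from 69.6 to 101 CPM in the poor libraries. The oocyte list mean of E replicate 3 (4.90) lay within the poor range of 4.54 to 5.11, while DE replicate 1 was lowest at 3.05. None of 14 granulosa genes (median -0.36) and none of 8 theca genes (median -0.22) was set apart. Cyp17a1, the androgen-forming enzyme of theca cells, spanned 2.71 to 772 CPM among the rich and 2.5 to 448 CPM among the poor libraries. The sets hold unequal numbers of each stage, so stage and oviduct transcripts cannot be told apart for these lists.

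Of the 19 genes set apart lower, 13 had a mean of at least 5 CPM and an assigned name. They included enzymes of cholesterol synthesis. Dhcr7, the last step of that pathway, had a lowest, median and highest level of 29.5, 56.9 and 145 CPM in the rich libraries. It measured 147 CPM in DE replicate 3, and 213, 270 and 185 CPM in E replicates 1, 2 and 4, so PE replicate 2 at 145 CPM all but met the poor range. Hmgcs1, an early step, ran from 136 to 425 CPM against 546 to 655 CPM, and Fdps from 45.4 to 97.3 CPM against 130 to 265 CPM. Sqle, a later step looked up after the values were seen, overlapped, with a difference of -0.65. Others among the 13 were Prg4 (-1.41), Lamc3 (-1.39), Col11a1 (-1.30), Scarb1 (-1.28), Dok6 (-1.15), Fam126a (-1.13), Rims4 (-1.03), Nos2 (-1.02) and Rps6ka2 (-1.01). Lamc3 and Col11a1 encode a laminin chain and a fibrillar collagen, and Nos2 the inducible nitric oxide synthase.

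DE and E each had libraries on both sides, which allowed the same genes to be read within a stage. In DE, 1755 genes (10.4%) were higher in each of replicates 1, 2 and 4 than in replicate 3, and by at least 2-fold on average, and 1217 of these were among the 1294. In E, 1588 genes (9.37%) were higher in replicate 3 than in the other 3 replicates by the same margin, and 1165 of these were among the 1294. Both held for 1226 genes (7.24%), of which 1100 were set apart over all 12 libraries. These libraries are part of the split, so the counts describe it and do not support it.

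Over the 1294 genes, the median height above the poor mean differed little between rich libraries, from 1.86 log2 units in DE replicate 2 to 2.44 in DE replicate 1. E replicate 3, the one rich library of its stage, was at 2.05. The cilia list mean ran from 3.73 in DE replicate 4 to 4.68 in DE replicate 1. The order of the secretory list was not the same: E replicate 3 (5.42) and PE replicate 2 (5.31) were highest and PE replicate 1 (4.11) lowest.

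Some genes varied far more among the 8 rich libraries. The 25 with the largest spread were taken from the genes set apart after their values were seen. One set was highest in DE replicate 4. Pgr, the progesterone receptor gene (chromosome 9, 8899833 to 8968611, plus strand), measured 184 CPM there, 133 and 112 CPM in PE replicates 3 and 1, and 78.1 CPM in DE replicate 1. It measured 46.3 CPM in PE replicate 4, 38.7 CPM in E replicate 3, 27 CPM in DE replicate 2 and 18.4 CPM in PE replicate 2, and at most 6 CPM in the poor libraries. The rich libraries thus spanned 10-fold for this receptor while Epcam ran only from 69.2 to 104 CPM. Hoxa10, the Hox gene of the uterus, was at 27.7 CPM in DE replicate 4 and from 1.28 to 5.91 CPM in the other 7. Padi2 (144 CPM), Ptpn5 (46.3 CPM), Pcp4 (67.9 CPM) and Unc5cl (30.3 CPM) were also highest in that library. PE replicate 2 was lowest in Pgr, Hoxa10, Padi2, Ptpn5, Unc5cl and Wfdc2.

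A different set was highest in PE replicate 2. Dcpp3 measured 131 CPM there, 40.6 CPM in DE replicate 2, 27.5 CPM in PE replicate 3 and 3.53 CPM in DE replicate 1. Alox12e measured 86.3 CPM in PE replicate 2 and 34.2 CPM in DE replicate 2, with 13.7 to 32.4 CPM in the other 6. Rnf112 was at 46.9 CPM in PE replicate 2, 42.4 CPM in E replicate 3, 35.9 CPM in DE replicate 2 and 0.886 CPM in DE replicate 4. A2ml1 had the same 3 libraries on top, with 1760 CPM in PE replicate 2, 1027 CPM in E replicate 3 and 912 CPM in DE replicate 2. These libraries carry different stage labels.

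Another set was highest in E replicate 3. Prap1, a secreted acidic protein known from the uterus and gut (chromosome 7, 140093395 to 140097200, plus strand), measured 174 CPM there and 0.726 to 1.74 CPM in the other 7 rich libraries, with no count in the poor. Lcn2, an iron-scavenging defence protein, measured 246 CPM, with 103 CPM in DE replicate 4 next. Pigr, the receptor that carries antibodies across epithelia, measured 64.4 CPM against 1.51 to 23.8 CPM in the others. Ptgs2 (40 CPM) and Arg1 (36.2 CPM) were also highest there, against at most 5.72 and 8.57 CPM. Lep and Sncg followed the fat genes, highest in PE replicate 4 at 42.7 and 55.4 CPM.

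**Figure D4:**
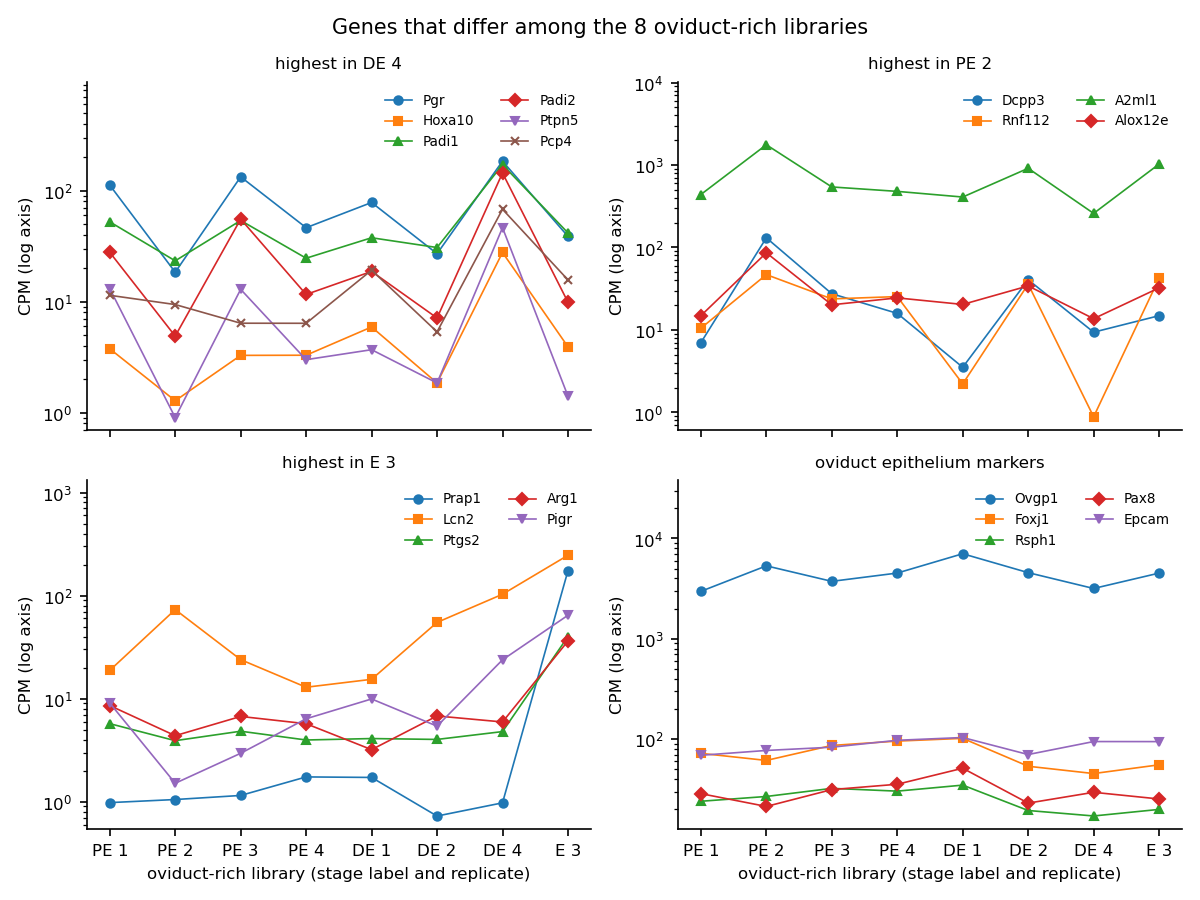
CPM (log axis) in each of the 8 oviduct-rich libraries for genes highest in DE replicate 4, PE replicate 2 or E replicate 3, and for 5 epithelium markers; each point is 1 library and the lines only join the values of a gene. Prap1 reaches 174 CPM in E replicate 3 and at most 1.74 CPM elsewhere, while Epcam stays between 69.2 and 104 CPM.

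Libraries outside the split were read against the same genes. In the 4 KO (anestrus) libraries, made in the same experiment, 1118 of the 1294 genes (86.4%) were below the lowest rich library in all 4, against 16.5% of all expressed genes. In 54 of the 1294 (4.17%) all 4 KO (anestrus) libraries were above the lowest rich library, against 63.4% of all expressed genes. The 1294 were chosen because their lowest rich library was above every poor library. That choice moves both shares, and nothing is read from their distance to those of all genes. The 54 include Lcn2, with 53.3 to 205 CPM in KO (anestrus), and Esrp1, a splicing factor of epithelia, with 24.6 to 34.6 CPM. On the list means, the KO (anestrus) libraries lay above the poor set but much nearer to it than to the rich set. They ran from 0.65 to 1.24 for cilia, 0.80 to 1.59 for secretory and 2.63 to 2.80 for epithelial genes. The highest poor library had 0.60, 0.72 and 2.34 for these lists, and the lowest rich library 3.73, 4.11 and 4.64.

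In experiment 1, replicate 3 of Fshb(+/-) was highest of 9 libraries in all 3 markers. It measured 929 CPM of Ovgp1, 154 CPM of Foxj1 and 40.8 CPM of Rsph1, and the other 8 libraries at most 39.9, 4.33 and 5.57 CPM. Of the 1294 genes, 855 (66.1%) were highest in that library and at least 2-fold above the median of the other 8, against 7.7% of all expressed genes. The median of these differences was 1.48 log2 units over the 1294 genes and -0.01 over all expressed genes. It is 1 library, so the difference has no replicate check. It was taken as the highest of experiment 1 in Ovgp1, so the place of Ovgp1 among the 855 genes was fixed by that choice.

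The lists differed in this library. Of the cilia list 45 of 46 genes were highest there by that measure, with a median of 4.01 log2 units, close to the 3.71 between the rich and poor sets. Of the secretory list 5 of 9 were, including Ovgp1, by which the library was chosen, with a median of 1.98 against 3.92. Lists of other cell types were high there too. Luteal genes were highest there in 6 of 10 (median 1.71, against -1.34 between the rich and poor sets), smooth muscle genes in 7 of 11 (1.44 against 1.09) and adipocyte genes in 6 of 10 (1.59 against 1.79). Their part in the result was not tested. Dnah5 measured 197 CPM, level with the highest rich library at 195 CPM, whereas A2ml1 measured 68.5 CPM against 259 CPM in the lowest rich library. Serpina1e measured 0.323 CPM against 28.9 to 302 CPM. Upk1a measured 7.7 CPM against 47.3 to 77.5 CPM. Pgr measured 11 CPM, below all 8 rich libraries, and Hoxa10 measured 1.55 CPM, below 7 of them. The experiments were scaled apart, and per the labels' protocols they were sequenced at different sites, whose part in these differences was not tested.

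The ratio of Ovgp1 to Foxj1 CPM, which does not depend on library scaling, was 41.1 to 86.7 in the rich libraries and 6.03 in Fshb(+/-) replicate 3. Experiment 2 also held libraries with raised markers. There the HFSHB library of replicate 2 had 417 CPM of Ovgp1 and 36.4 CPM of Foxj1, and Fshb(-/-) replicate 3 had 196 and 47.2 CPM, for ratios of 11.5 and 4.15. The HFSHB library was taken as the highest of experiment 2 in Ovgp1. Of the 1294 genes, 131 (10.1%) were highest of experiment 2 there and at least 2-fold above the median of the other 7. The share over all expressed genes was 1.86%. Fshb(-/-) replicate 3 is among those 7, so genes raised in both libraries can fail the demand to be highest. Of 46 cilia genes 4 met it, while the median difference of that list was 2.58 log2 units. Within KO (anestrus), replicate 2 was highest in Ovgp1, at 36.2 CPM with 35.6 CPM in replicate 4. Replicate 2 was highest and at least 2-fold above the median of the others for 34 of the 1294 genes (2.63%), against 0.744% of all. By that measure 9 of 10 adipocyte genes were highest there, but 1 of 46 cilia, 1 of 9 secretory and 0 of 23 epithelial genes.

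**Figure D5:**
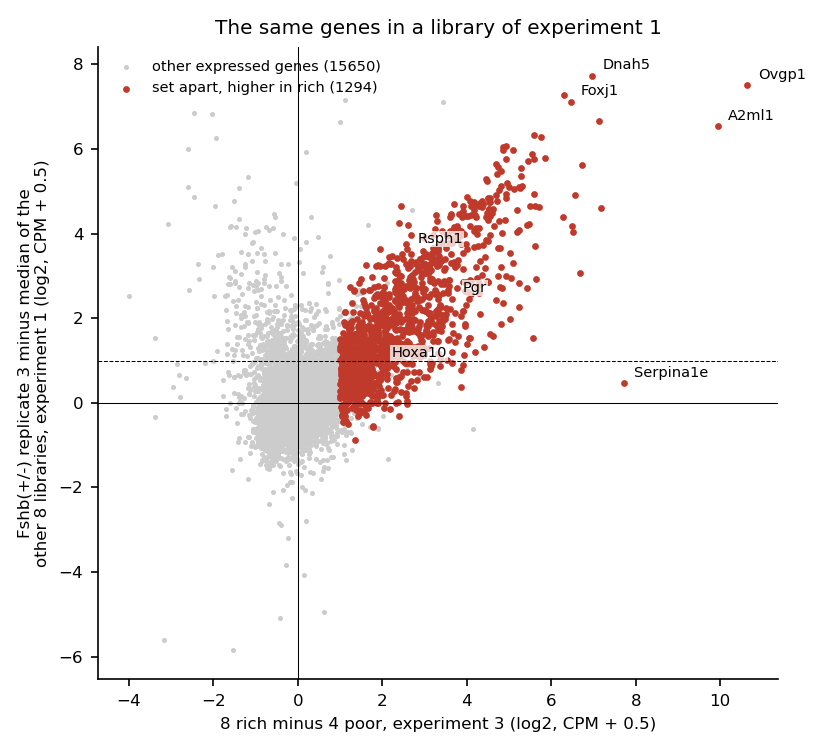
For each of 16944 expressed genes, the log2 difference of the 8 rich and 4 poor libraries of experiment 3 (x axis) and that of Fshb(+/-) replicate 3 from the median of the other 8 libraries of experiment 1 (y axis), both from CPM + 0.5; the dashed line marks 2-fold. Most of the 1294 genes set apart (red) lie above 0 on both axes, with Ovgp1 and Dnah5 high on both and Serpina1e near 0 on the y axis.

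The stage labels, unlike the split, were given independently of these values, and allow a test. In edgeR's quasi-likelihood fit with Benjamini-Hochberg adjustment over 16944 genes, no gene was called (0%) between PE and E, between DE and E or between PE and DE, with 4 libraries a stage. Before adjustment, p was under 0.05 for 3170 genes (18.7%) in PE minus E, 1796 (10.6%) in DE minus E and 407 (2.4%) in PE minus DE. Among the 1294 genes set apart, the corresponding counts were 580 (44.8%), 310 (24%) and 3 (0.232%). All 4 PE libraries are rich and 3 of 4 E libraries poor, so the choice of these genes raises their share in PE minus E and DE minus E, and nothing is read from it. These 3 comparisons share libraries. DESeq2 called 344 genes (2.03%), 9 (0.0531%) and 0. Of the 344 genes, 190 were higher in PE, and 76 were among the 1294, all higher in PE. The choice of the 1294 favours that overlap and direction too, and nothing is read from them.

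The markers showed how wide the spread within a stage was. Ovgp1 differed by 1.87 ± 2.00 log2 units (SE) between PE and E (edgeR adjusted p = 0.63), by 1.71 ± 1.99 between DE and E (0.77) and by 0.16 ± 1.93 between PE and DE (1). For Foxj1 the differences were 2.49 ± 1.34 (0.32), 1.84 ± 1.32 (0.61) and 0.65 ± 1.26 (1). For Rsph1 they were 1.83 ± 0.64 (0.21), 1.23 ± 0.63 (0.49) and 0.60 ± 0.61 (1). Each SE here is the absolute difference divided by the square root of the F statistic of its test. An SE of about 2 log2 units does not show that the stages were alike.

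The counts changed with single libraries. Without PE replicate 2, edgeR called 279 genes for PE minus E (1.62%), 10 of them among the 1294. Without E replicate 3, on the other side of the split from the rest of its stage, edgeR called 1847 genes for PE minus E (10.7%), of which 1044 were among the 1294, and 1039 for DE minus E (6.03%), of which 789 were. Without DE replicate 3 alone, 2 genes were called for DE minus E (0.0116%), neither among the 1294, and 0 for PE minus DE, with 435 before adjustment (2.52%). For DE minus E 3656 (21.2%) had an unadjusted p under 0.05. Without both libraries edgeR called 2656 (15.5%) and 2750 genes (16%), with 1240 and 1255 of the 1293 genes set apart that were tested, all of them higher in PE or DE. In that fit every PE and DE library is rich and every E library poor, so stage and oviduct transcripts cannot be told apart. PE minus DE, where all 7 libraries left are rich, had no call (0%), with 519 genes under an unadjusted p of 0.05. Of the 1293 genes, 32 were among the 519. Because the libraries were left out for their marker levels, these counts restate the split and are no evidence of a stage effect.

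With the mean level of the 3 markers as a covariate over all 16 libraries, edgeR called 1 gene for PE minus E and for DE minus E and none for PE minus DE. The gene was Prap1 in both, lower by 7.64 and 7.61 log2 units (adjusted p = 0.00073 and 0.0034). Its level in the E group came from replicate 3 alone, as given above, so the call rests on 1 library.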

How the data were processed

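The authors deposited an estimated count (expected count, not always whole) per gene for 54347 identifiers, made with Salmon and DESeq2 on GRCm38 per the submitters' processing notes. The sources used here give no versions, settings or annotation. Counts were rounded. Identifiers were matched to GENCODE M21 (54094 matched, 253 without a symbol, 0.0055% of counts). CPM used TMM factors within each experiment. Genes kept by filterByExpr over the 16 libraries of experiment 3 were called expressed. Differences are of mean log2(CPM + 0.5), which understates the change of low genes. Stages were tested with edgeR 4.0.16 (glmQLFit, glmQLFTest, R 4.3.3) in 1 fit over 16 libraries, threshold 0.05, after a test on simulated data. DESeq2 1.42.0 was an alternative.

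The libraries and all gene lists were chosen with earlier results of these data known. Named genes were the 3 markers, the members of 15 lists, and the 20 higher and up to 15 lower genes of largest difference with a mean of at least 5 CPM and no predicted name, plus those said to be chosen afterwards. Replicates differed by more than sampling noise in every pair (chi-square over its degrees of freedom 14.4 to 74). The counts are of estimated reads, so genes with near-identical copies, and overlapping or antisense genes, are uncertain. A gene that the rule names is not reported here.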

Additional observations from a re-analysis of the deposited data

Results flagged for a closer look

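Single libraries stood apart from the rest of their set, by Dixon's criterion at the 95% level, in 9 of 98 sets looked at. Chance gives about 1 in 20. Among the rich libraries, DE replicate 4 was high in Padi1, at 171 CPM with 53.8 CPM next. DE replicate 1 was high in Slc14a1, at 180 CPM with 117 CPM next, and low in Nos2, at 17.8 CPM with 34.7 CPM next. PE replicate 2 was high in Alox12e, at 86.3 CPM with 34.2 CPM next. E replicate 3 was low in Dok6, at 2.59 CPM with 11.9 CPM next.

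Among the poor libraries, E replicate 2 was high in Rsph1, at 5.41 CPM with 3.43 CPM next, and in A2ml1, at 0.255 CPM with 0.0926 CPM next. Ugt1a1 was seen only in E replicate 4 (0.185 CPM) and Alox12e only in DE replicate 3 (0.15 CPM), on 2 counts each.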

How the results depend on the processing

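The 1294 genes set apart higher stayed within 1.5 times that number under other scalings, filters and a pseudocount of 2, within DE (1755) and within E (1588), and ran from 1284 to 1430 with a library left out. The 19 set apart lower were less stable: 12 with a pseudocount of 2, 578 within DE only, 333 within E only, and 19 to 114 with a library left out (114 without E replicate 4, 48 without E replicate 3, 42 without PE replicate 2, 40 without DE replicate 3, 30 without DE replicate 1). A range over fewer libraries is narrower, so these counts can only stay or grow before the demand on size.

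For the stage tests, with a replicate left out, calls ran from 0 to 1847 for PE minus E (279 without PE replicate 2, 1 without PE replicate 4), from 0 to 1039 for DE minus E (2 without DE replicate 3) and from 0 to 0 for PE minus DE. PE minus E gave 344 with DESeq2, 1 with the marker covariate and 2656 without DE replicate 3 and E replicate 3. DE minus E gave 9, 1 and 2750. Fits with the replicate number as a block called 0 genes in all 3 comparisons, so the block changed no such count. The numbers were not taken to pair samples. In their deviations from the group mean, same-numbered PE and E libraries correlated at 0.14, 0, 0.08 and -0.07. DE and E libraries correlated at -0.4, -0.41, -0.75 and -0.03, and PE and DE libraries at -0.2, 0.18, -0.06 and -0.01. The -0.75 is that of DE replicate 3 and E replicate 3, each on the other side of the split from the rest of its stage. The marker covariate contains Ovgp1, Foxj1 and Rsph1, so it draws their own differences towards 0 by construction. With it, Ovgp1 turned to -0.57 (PE minus E) and -0.09 (DE minus E), and Rsph1 to -0.12 (DE minus E). Ovgp1 in PE minus DE turned to -0.36 with the replicate block, -0.48 with the covariate, -0.25 without both libraries and ran from -0.26 (without DE replicate 3) to 0.69 with a library left out. Of the rich minus poor differences of single genes followed across settings, 624 stayed within 1 SD and 22 moved by more. Stage differences were counted for the 3 markers only: 125 kept direction and side, 12 became stronger and 7, those just given, reversed. Stage differences of other genes are not in that count and some reversed too, such as Wfdc2 in PE minus E, from 0.34 to -1.56 with the covariate.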
